A study of Homo sapiens with 4 samples.

Results

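The genes described here encode subunits of the chromatin remodelling complexes of the SWI/SNF, ISWI and INO80 families, and they were chosen by gene name. Names beginning with SMARC or INO80, the ARID genes with a digit and a letter or none, PBRM1, DPF1 to DPF3, ACTL6A and ACTL6B, the BCL7 and BAZ genes, BPTF, RSF1, EP400, SRCAP, RUVBL1 and RUVBL2 were taken in. They came to 139 of the 54675 probe sets on the array and to 46 of 19777 genes, of which 45 passed a filter on low signal and were tested among 13157 genes in all. The gene left out was SMARCAD1-DT, a noncoding divergent transcript beside SMARCAD1 and no subunit, whose signals of 2.13 and 2.40 in the lysate and 1.93 and 2.60 in the IP lay at the low end of the arrays. A further 7 probe sets carry a matching symbol among several and were not counted. The names also bring in genes outside these complexes, namely SMARCAL1, SMARCAD1 and the ARID3, ARID4 and ARID5 genes, which are described apart.

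All samples came from Flp-In T-REx HEK293 cells, a human embryonic kidney line with a stably integrated transgene encoding FlagHA-tagged FMRP, the RNA-binding product of FMR1, induced with 1 µg/ml doxycycline for 16 h. Total RNA of the lysate (2 samples) was compared with RNA recovered by anti-FLAG M2 immunoprecipitation (IP) and washes at 300 mM KCl (2 samples), each on its own Affymetrix human array from 2 µg of RNA. FMRP was thus expressed from the transgene in every sample, and without an IP from cells lacking tagged FMRP the background of the recovery is unknown. Whether replicates are separate cultures is not stated in the labels, so p-values measure only the spread between these samples, which may be technical; 2 arrays a group limit the precision, and an exact permutation test over the samples could not go below p = 0.333.

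Remodelling complexes use the energy of ATP hydrolysis to slide, evict or exchange nucleosomes. Each is built around a large ATPase of the SNF2 type, with further large scaffold and reader proteins and a number of small accessory subunits. SWI/SNF complexes (BAF and PBAF) open chromatin at enhancers and promoters, ISWI complexes space nucleosomes, and the INO80, SRCAP and EP400 complexes handle the histone variant H2A.Z. Mutations in SWI/SNF subunits cause developmental disorders and cancers, and mRNAs of chromatin regulators have been described among FMRP ligands in neurons.

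Remodelling complex mRNAs mostly had higher signals in the IP. Of the 45 genes tested, 30 rose, 4 fell and 11 did not pass (limma, adjusted p at most 0.05), against 35% of all genes tested that were higher, 28.8% that were lower and 63.9% called in either direction. Their median change was 0.62 on the log2 scale, against 0.08 over all genes. The rises reached 2-fold or more for 8 genes, namely SMARCAL1, SMARCA1, ARID1B, EP400, SMARCA4, SMARCA2, BPTF and RSF1, and SMARCE1 was the 1 gene lower by at least 2-fold; over all genes these shares were 12.5% and 12.8%. Both IP arrays lay above both lysate arrays for 30 members (45.1% of all genes) and below them for 9 (37.2% of all genes). Counted by probe set, 69 of the 107 kept were higher and 7 lower, against 33.2% and 28.3% of all kept probe sets. The 45 genes include 7 that match by name but are not subunits. Of the 38 subunits alone, 24 rose, 4 fell and 10 did not pass, with a median change of 0.59. Thus 63.2% were higher and 10.5% lower, against 35% and 28.8% of all genes.

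The counts depended on how the arrays were scaled. The median of 18 hybridization control probe sets lay 0.48 higher on the IP arrays than on the lysate arrays. After centring on it, the median over all genes became -0.40 and that of the remodelling genes 0.14. The counts were then 12 higher and 13 lower, while over all genes 15.9% were higher and 48.5% lower. The 4 genes that fell were lower there too, and 4 of those that rose (ARID3B, DPF2, SMARCB1 and SMARCD1) turned to changes that did not pass. On either scale the members' median lay 0.54 above that of all genes. This gap could not differ, since the centring moves the change of every gene by the same amount.

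The difference between 5′ and 3′ control probe sets also moved with the IP, for cell mRNAs and for some added spike-ins. The 5′ minus 3′ signal of the ACTB control probe sets was -1.37 and -1.34 in the lysates and -3.02 and -2.96 in the IPs, and for GAPDH -0.19 and -0.19 against -0.94 and -1.03. The bacterial RNA spike-ins dap and thr differed in the same sense, at -1.70 and -1.61 against -2.43 and -2.05 for dap and at -2.01 and -2.08 against -3.23 and -3.0 for thr. The other spike-ins differed less, at -1.28 and -1.25 against -1.37 and -1.31 for lys and at -0.22 and -0.02 against -0.25 and -0.27 for phe. The part of this difference in the changes given here was not tested. Markers of the labelled line were present, with VIM at 12.80 and 12.84, NEFL at 11.67 and 11.77 and KRT18 at 10.43 and 10.66 in the lysates, while LHX1 (4.92 and 4.99) and NEFM (3.73 and 3.73) were near or below the array medians of 4.67 to 4.71. Of 13 markers of blood, endothelium, fibroblast, liver, glia and muscle, 4 passed the filter, 8 did not and 1 had no probe set of its own, and their summed log2 signal was 48.6 to 49.4 in the lysates and 51.8 to 53.3 in the IPs.

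**Figure D1:**
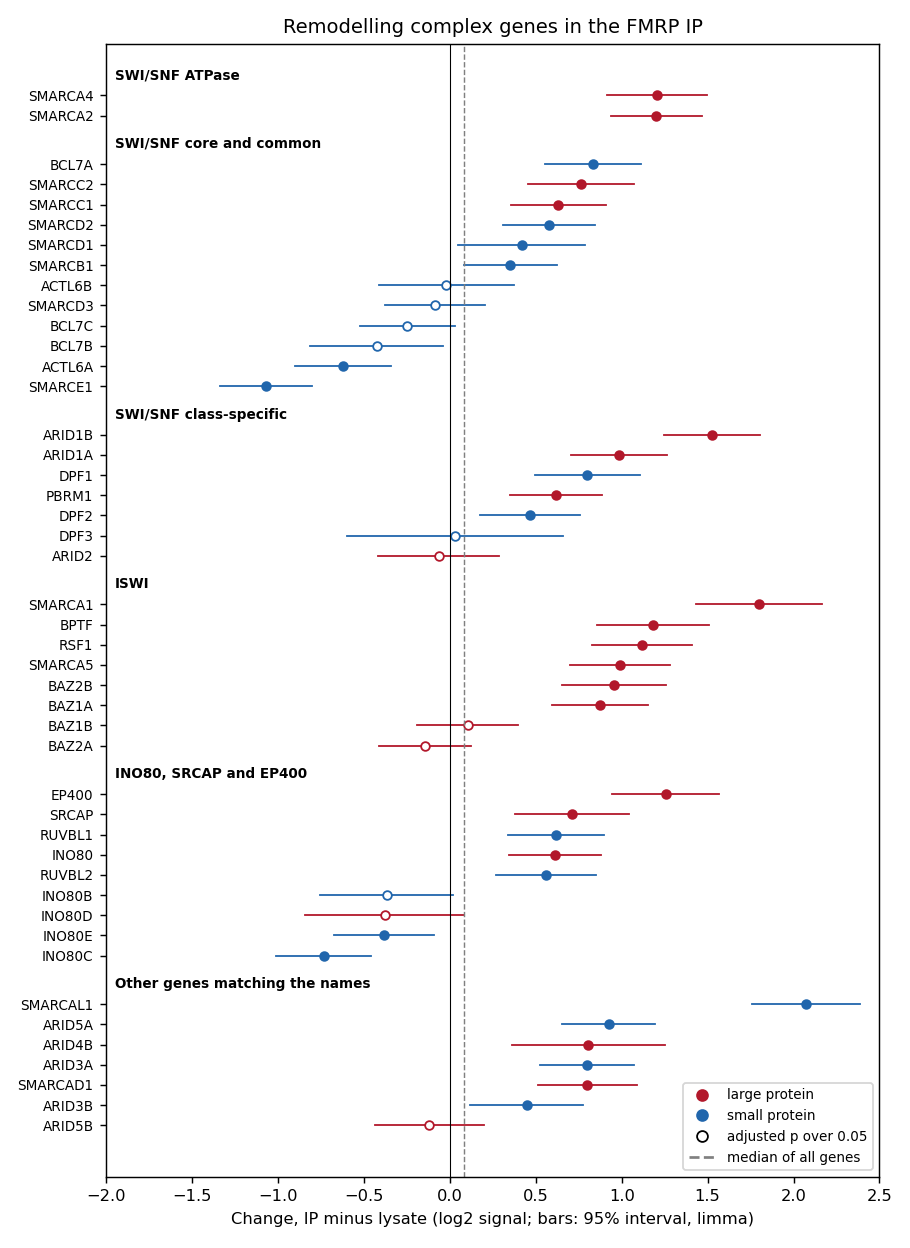
Change of each of the 45 genes tested, IP minus lysate, on the log2 scale with its 95% limma interval, by role in the complexes; filled points passed at an adjusted p of at most 0.05, red marks large and blue small proteins, and the dashed line is the median of all genes (0.08). The genes that fell are SMARCE1, ACTL6A, INO80C and INO80E, and all are blue.

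The catalytic subunits of SWI/SNF were both higher in the IP. SMARCA4 (BRG1; chromosome 19, Entrez Gene 6597) stood at 10.61 and 10.83 in the lysates and at 11.93 and 11.92 in the IPs. SMARCA2 (BRM; chromosome 9, Entrez Gene 6595), its alternative in the complex, stood at 7.89 and 7.94 against 9.13 and 9.10. In both genes the IP arrays lay well clear of the lysate arrays and close to each other. SMARCA4 rose 2.31-fold (1.21 ± 0.12 on the log2 scale, mean difference ± SE with n = 2 in each group, limma adjusted p = 1.14e-04) and SMARCA2 rose 2.30-fold (1.20 ± 0.11, adjusted p = 7.81e-05).

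The probe sets of these ATPases did not give 1 value. All 7 kept SMARCA4 probe sets were higher, with changes from 0.38 to 1.83. Of the 5 kept SMARCA2 probe sets, 2 passed, at 1.20 and 0.69, and the others changed by 0.39, 0.34 and 0.13. The SMARCA2 probe set with the 1.20 change may cross-hybridize by its type, and with the mean of its probe sets the SMARCA2 change was 0.55.

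Of the 12 core and common SWI/SNF subunits tested, 6 rose, 2 fell and 4 did not pass (50% higher and 16.7% lower, against 35% and 28.8% of all genes), with a median change of 0.17. The scaffold pair SMARCC1 and SMARCC2, the large proteins of this group, changed by 0.63 and 0.77 and passed. For SMARCC1, 2 of its 4 kept probe sets did not pass, at 0.17 and 0.11, and the mean of its probe sets changed by 0.39. BCL7A (chromosome 12, Entrez Gene 605), of a family of small accessory subunits, had the largest rise, from 8.02 and 8.17 in the lysates to 8.91 and 8.95 in the IPs, a change of 0.83 ± 0.12 (limma adjusted p = 5.48e-04). Its relatives BCL7B and BCL7C changed by -0.43 and -0.25 and did not pass (adjusted p = 0.0541 and 0.101), although both IP arrays lay below both lysate arrays in each. The BCL7B value depended on single arrays, since it was -0.64 without lysate replicate 2 and -0.53 without IP replicate 2, both of which passed (limma adjusted p = 0.0164 and 0.0305), and -0.21 without lysate replicate 1.

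SMARCE1 (BAF57; chromosome 17, Entrez Gene 6605), a small HMG-box subunit, had the largest fall of all 45 genes. It stood at 10.01 and 9.95 in the lysates and at 8.95 and 8.88 in the IPs. Its signal was 2.10-fold higher in the lysate (log2 change -1.07 ± 0.12, limma adjusted p = 1.35e-04), opposite to the SMARCA4 and SMARCC mRNAs of the same complex. The other kept SMARCE1 probe set changed by -0.23 and did not pass.

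ACTL6A (chromosome 3, Entrez Gene 86), the actin-like subunit also found in INO80-family complexes, was the other core gene that fell, from 9.14 and 9.24 to 8.50 and 8.63 (-0.62 ± 0.12, limma adjusted p = 0.00245). Its neuronal counterpart ACTL6B had overlapping groups with low means of 4.95 and 4.93, near the filter limit of 4.70. The ACTL6B change of -0.02 did not pass (95% interval -0.42 to 0.37). SMARCD2 rose by 0.58 (adjusted p = 0.00299). SMARCD1 (0.42) and SMARCB1 (0.35), the subunit lost in rhabdoid tumours, passed by a small margin, at adjusted p = 0.0486 and 0.0291. Neither passed once lysate replicate 1 or IP replicate 2 was left out, and SMARCB1 did not pass with any array left out. The SMARCD1 change was 0.22 without lysate replicate 1. The muscle-enriched SMARCD3 stood at -0.09 (95% interval -0.38 to 0.21).

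The class-specific subunits define which SWI/SNF complex is formed. Of 7 tested, 5 rose and 2 did not pass, with a median of 0.62 (71.4% higher and none lower, against 35% and 28.8% of all genes). ARID1B (chromosome 6, Entrez Gene 57492), a BAF subunit mutated in Coffin-Siris syndrome, stood at 8.00 and 7.87 in the lysates and 9.41 and 9.51 in the IPs, a 2.88-fold rise (1.53 ± 0.12, limma adjusted p = 4.35e-05). Its paralog ARID1A changed by 0.99 (adjusted p = 2.43e-04). Each had 3 probe sets that passed, and 2 ARID1B probe sets (0.21 and 0.24) and 1 of ARID1A (0.05) did not. PBRM1, the bromodomain subunit of PBAF, rose by 0.62, and all 4 of its kept probe sets were higher, up to 1.14.

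ARID2 (chromosome 12, Entrez Gene 196528), the DNA-binding subunit of PBAF, stood at 7.67 and 7.75 in the lysates and at 7.83 and 7.46 in the IPs, so the groups overlapped, and the change of -0.07 had a 95% interval of -0.42 to 0.29 (limma adjusted p = 0.719). Its probe sets disagreed, since 1 of the others was lower at -0.74 and the other higher at 0.56. Of the small DPF readers, DPF1 rose by 0.80 and DPF2 by 0.46. The probe set that stands for DPF1 may cross-hybridize by its type. The other kept DPF1 probe set changed by 0.33 and passed by a small margin (limma adjusted p = 0.0446 over all probe sets). DPF3 stood at 0.03 from low signals of 5.32 and 4.38 in the lysates. The lysate arrays thus set its sign, with 0.50 without lysate replicate 1, which passed (limma adjusted p = 0.0366), and -0.44 without lysate replicate 2, which did not (adjusted p = 0.0554). DPF2 did not pass without lysate replicate 1.

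**Figure D2:**
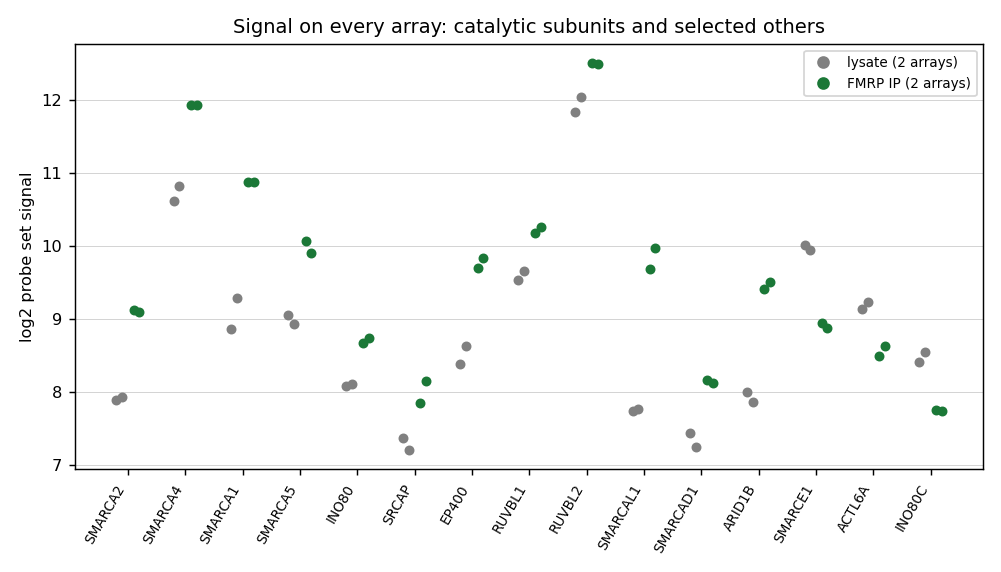
Log2 probe set signal on each of the 4 arrays for the ATPases and for ARID1B, SMARCE1, ACTL6A and INO80C; grey points are lysates and green points IPs. In every gene plotted the groups do not overlap, with SMARCE1, ACTL6A and INO80C lower and the others higher in the IP. The genes plotted were selected, and genes with overlapping groups, such as ARID2 and ARID5B, are not among them.

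The ISWI family gave the highest median change of the role groups with more than 2 genes. Of 8 tested genes, all large proteins, 6 rose and 2 did not pass, with a median of 0.97. Thus 75% were higher and none lower, against 35% and 28.8% of all genes. SMARCA1 (SNF2L; chromosome X, Entrez Gene 6594), an ISWI ATPase enriched in brain, stood at 8.86 and 9.29 in the lysates and at 10.88 and 10.87 in the IPs. It rose 3.48-fold (1.80 ± 0.16, limma adjusted p = 6.08e-05), and its other kept probe sets changed by 2.04 and 2.49. SMARCA5 (SNF2H; chromosome 4, Entrez Gene 8467), the widely expressed ISWI ATPase, stood at 9.06 and 8.93 against 10.06 and 9.90 and changed by 0.99 ± 0.12 (adjusted p = 2.78e-04). All 3 kept probe sets of each ATPase were higher.

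The large partners of the ISWI ATPases mostly moved in the same direction. BPTF, the reader subunit of NURF, changed by 1.18, and all 5 of its kept probe sets were higher, from 0.93 to 1.39. RSF1, the histone chaperone of the RSF complex, changed by 1.12, with 4 of 6 kept probe sets higher. BAZ1A, of the ACF and CHRAC complexes, and BAZ2B changed by 0.87 and 0.95. BAZ1B, the Williams syndrome transcription factor, stood at 0.10 (95% interval -0.19 to 0.40), but another of its probe sets was higher at 0.58, and the mean of its probe sets passed at 0.35 (limma adjusted p = 0.0253).

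BAZ2A (chromosome 12, Entrez Gene 11176), the TIP5 subunit that silences ribosomal DNA, had 7.93 and 7.98 in the lysates and 7.78 and 7.84 in the IPs. The IP arrays were a little below the lysate arrays, and the change of -0.15 did not pass (95% interval -0.41 to 0.12, limma adjusted p = 0.293). Its other probe sets were called in opposite directions, at 1.06 and -0.49.

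In the INO80, SRCAP and EP400 complexes 5 of 9 genes rose, 2 fell and 2 did not pass (55.6% higher and 22.2% lower, against 35% and 28.8% of all genes). EP400 (chromosome 12, Entrez Gene 57634), the ATPase of the TIP60 complex, had the largest rise, from 8.39 and 8.63 to 9.69 and 9.84. It was 2.39-fold higher in the IP (1.25 ± 0.13, limma adjusted p = 1.25e-04), and its 4 probe sets were close together, between 1.22 and 1.42. INO80 (chromosome 15, Entrez Gene 54617) stood at 8.08 and 8.11 in the lysates and at 8.67 and 8.74 in the IPs, a change of 0.61 ± 0.11 (adjusted p = 0.00211).

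SRCAP (chromosome 16, Entrez Gene 10847), the ATPase that deposits H2A.Z, stood at 7.37 and 7.21 against 7.86 and 8.15 and changed by 0.71 ± 0.14 (limma adjusted p = 0.00292). Of its 4 kept probe sets 2 passed, and the probe set of the unique class gave 0.18 and did not pass. Probe sets carrying SRCAP among several symbols, not counted here, changed by -0.11 and 0.43. The AAA+ ATPases RUVBL1 and RUVBL2, small proteins that form a shared ring in these complexes, were also higher. RUVBL1 (chromosome 3, Entrez Gene 8607) stood at 9.53 and 9.66 against 10.17 and 10.26, and RUVBL2 (chromosome 19, Entrez Gene 10856) at 11.83 and 12.04 against 12.50 and 12.49. Their changes were 0.62 ± 0.12 and 0.56 ± 0.12 (adjusted p = 0.00248 and 0.00521). The other kept RUVBL2 probe set, of the unique class, changed by 0.38 and did not pass (limma adjusted p = 0.0563 over all probe sets).

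Of the 4 accessory subunits specific to INO80, 2 fell, 2 did not pass and none rose. Over all genes 28.8% were lower and 35% higher, so counts of 4 genes say little. INO80C (chromosome 18, Entrez Gene 125476) fell from 8.41 and 8.56 in the lysates to 7.76 and 7.74 in the IPs (-0.73 ± 0.12, limma adjusted p = 9.88e-04), while its other probe set stood at 0.06. INO80E fell by 0.38 (adjusted p = 0.0286), a call that was lost without either lysate replicate and without IP replicate 2. INO80B (-0.37) and INO80D (-0.38) did not pass, at adjusted p = 0.0848 and 0.128, although both IP arrays lay below both lysate arrays in each. INO80D was the only one of these with a large protein, and its IP arrays differed, at 6.32 and 5.69. The probe set that stands for INO80D fell by 0.70 without IP replicate 1 and stood at -0.06 without IP replicate 2. Another kept INO80D probe set was lower at -0.56 (limma adjusted p = 0.0122 over all probe sets), and the last stood at 0.09. Probe sets carrying INO80B among several symbols, not counted here, changed by -0.93, -0.57 and -1.10. INO80B passed as lower without lysate replicate 1 (-0.54, adjusted p = 0.0477), without IP replicate 2 (-0.53, adjusted p = 0.0233) and with the replicate number as a block (adjusted p = 0.0250), and stood at -0.20 without lysate replicate 2.

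**Figure D3:**
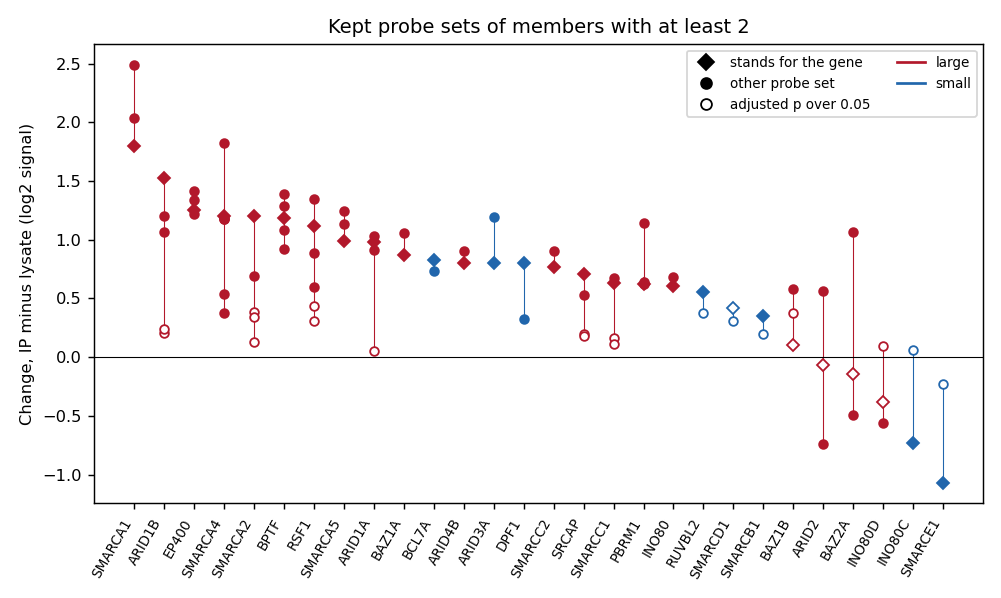
Changes of all kept probe sets for the 28 members with at least 2, on the log2 scale; diamonds mark the probe set that stands for the gene and open symbols an adjusted p over 0.05, adjusted over all probe sets. All probe sets shared a sign in 24 genes, and ARID2, BAZ2A, INO80C and INO80D had changes of both signs.

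Among the genes that match by name but are not subunits of these complexes, 6 of 7 rose and none fell. Over all genes 35% were higher and 28.8% lower. SMARCAL1 (chromosome 2, Entrez Gene 50485), an annealing helicase that restarts stalled replication forks, had the largest change of all 45 genes. It stood at 7.74 and 7.77 in the lysates and 9.69 and 9.97 in the IPs, a 4.21-fold rise (2.07 ± 0.13, limma adjusted p = 3.44e-05), and it has 1 probe set. SMARCAD1 (chromosome 4, Entrez Gene 56916), an ATPase that acts in DNA end resection and heterochromatin upkeep, stood at 7.44 and 7.25 against 8.17 and 8.12 (0.80 ± 0.12, adjusted p = 7.94e-04).

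The DNA-binding genes ARID3A, ARID5A and ARID4B changed by 0.80, 0.92 and 0.81 and passed, and ARID4B changed by 0.52 without lysate replicate 2. Probe sets carrying ARID4B among several symbols, not counted here, went the other way, at -0.25 and -0.62. ARID3B changed by 0.45 and did not pass without lysate replicate 1 or IP replicate 2. ARID5B (chromosome 10, Entrez Gene 84159) stood at 8.82 and 8.56 against 8.65 and 8.50, with overlapping groups and a change of -0.12 (95% interval -0.44 to 0.20, limma adjusted p = 0.471).

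Large and small subunits gave different counts. Proteins of about 1000 residues or more were classed as large, from general knowledge of the human proteins, since protein lengths were not used here. Of 23 large members 18 rose, none fell and 5 did not pass, and their median change was 0.81 (range -0.38 to 1.80). Of 22 small members 12 rose, 4 fell and 6 did not pass, with a median of 0.39 (range -1.07 to 2.07). The background shares were 35% of all genes higher and 28.8% lower. These counts rest on 1 probe set per gene. Of the 77 kept probe sets of large members 55 were higher and 3 lower, the latter in ARID2, BAZ2A and INO80D. Of the 30 of small members 14 were higher and 4 lower, against 33.2% and 28.3% of all kept probe sets. No large member fell in the other settings tried, except with hybridization control centring (4) and without IP replicate 1 (1). Over all genes 48.5% were lower with that centring and 27.5% without IP replicate 1.

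The medians lay further apart when only subunits of the complexes were counted. Of 20 large subunits 16 rose (80%) and none fell, with a median of 0.91. Of 18 small subunits 8 rose (44.4%) and 4 fell (22.2%), with a median of 0.00. Among all genes tested 35% rose and 28.8% fell, and their median was 0.08. The small subunits thus lay nearer to the whole array than the large ones did. Within SWI/SNF the medians were 0.88 for 8 large and 0.03 for 13 small genes. In the INO80, SRCAP and EP400 complexes they were 0.66 for 4 large and -0.37 for 5 small genes. The 4 small genes outside the complexes all rose, with a median of 0.86, and SMARCAL1, whose protein is just under the limit, is among them.

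The difference between the medians of large and small members was 0.42. On IP replicate 1 the medians against the lysate mean were 0.91 for large and 0.32 for small members, and on IP replicate 2 they were 0.84 and 0.41. Without lysate replicate 1 the difference was 0.57 and without IP replicate 2 it was 0.59. It was 0.49 with the limit at 800 residues, where SMARCAL1 becomes large, and 0.50 with the limit at 1500 residues. It did not depend on the centring, since a shift of an array moves both classes alike. The small median nevertheless turned to -0.09 with hybridization control centring. There 10 large and 2 small genes were higher and 4 large and 9 small genes were lower, against 15.9% higher and 48.5% lower over all genes. Sizes of members are not replicates of a condition, and no test was made of the difference between large and small members.

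**Figure D4:**
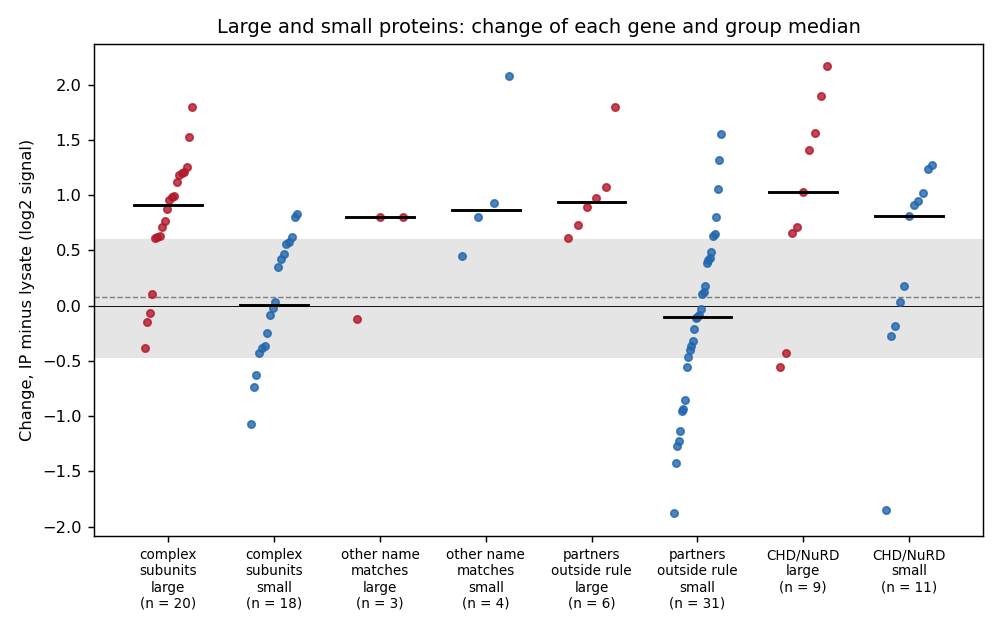
Change of each gene, IP minus lysate on the log2 scale, for large (red) and small (blue) proteins; black bars are group medians, and the grey band and dashed line are the interquartile range (-0.48 to 0.61) and median of all genes. Large subunits of the complexes centre on 0.91 and small ones on 0.00; the partners outside the name rule (0.93 and -0.10) and the CHD and NuRD genes (1.03 and 0.81) were split by size after their values were seen.

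Protein size could not be set for all genes, so the genomic span of each gene was used to place the pattern. Genes spanning at least 50 kb were called higher in 46.6% and lower in 22.6% of 4477 cases, with a median change of 0.29. Genes spanning less were called higher in 29.1% and lower in 32.1% of 8668 cases, with a median of -0.01. The remodelling genes had 20 of 26 higher and none lower above that span, with a median of 0.80, and 10 higher and 4 lower of 19 below it, with a median of 0.42. The large members had a median span of 131 kb and the small ones of 24.2 kb, so size and span are not separate measures here. The long and the short genes of the whole array thus differed in the same direction as the long and short members.

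Other subunits of the same complexes, listed without regard to the name rule, were called in both directions. Of 37 tested, 16 rose, 13 fell and 8 did not pass (43.2% higher and 35.1% lower, against 35% and 28.8% of all genes), with a median of 0.11, near the 0.08 of all genes. TRRAP, the giant scaffold of the TIP60 complex, changed by 1.80 and BRD9, of the noncanonical BAF complex, by 1.55, while UCHL5, a deubiquitinase bound to INO80, changed by -1.88. The 6 large proteins in this list (TRRAP, BICRA, BICRAL, NFRKB, CECR2 and BRD8, a split made after the values were seen) all rose, with a median of 0.93. Of the 31 small ones 10 rose and 13 fell, with a median of -0.10. Among the small ones that fell, SS18 changed by -1.27, ZNHIT1 of the SRCAP complex by -1.42, CHRAC1 of the CHRAC complex by -1.23 and MEAF6 by -1.14. Among the 10 that rose, besides BRD9, DMAP1 changed by 1.32 and ACTR5 by 1.06. All of these except BRD9 were named after their values were seen.

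The CHD and NuRD genes, the remaining remodeller family, were set beside these. Of 20 tested, 13 rose, 3 fell and 4 did not pass (65% higher and 15% lower, against 35% and 28.8% of all genes), with a median of 0.86. CHD4 changed by 2.16 and CHD8 by 1.90, and CDK2AP1, a small NuRD subunit, by -1.85. Here 7 of 9 large genes rose and 2 fell (median 1.03), and 6 of 11 small genes rose and 1 fell (median 0.81). With hybridization control centring the list of partners had 7 higher and 19 lower (median -0.37) and the CHD and NuRD list 10 higher and 6 lower (median 0.38), against 15.9% higher and 48.5% lower over all genes and their median of -0.40.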

How the data were processed

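Values were deposited as log2 signals of Affymetrix Human Genome U133 Plus 2.0 arrays, a scale read from their range. The background correction, summary and normalization used by the authors are not given in the sources; near-equal distributions show that arrays were scaled to each other, so changes are relative. There are no detection calls. Probe sets with 1 platform symbol and a mean of at least 4.70 (the median of all) were kept (filter), and the probe set with the highest mean stood for each gene. Names and chromosomes came from the GRCh38.p14 RefSeq gene table (41037 of 41091 probe sets matched). The IP to lysate difference was tested with limma 3.58.1 (R 4.3.3) over 13157 genes (no covariate, 2 residual degrees of freedom, 5.51 prior), with Benjamini-Hochberg adjustment at 0.05. Every member could be named; values per array were given for ATPases and for the highest and lowest change in each role group. Of the other lists, up to 3 genes were named by rule. Members and lists were chosen with earlier results of these data known. Size classes replaced the planned RefSeq protein lengths and were assigned by hand. On simulated data (200 changed genes) the fit recovered 8% of changes of 0.5, 90% of 1 and 100% of 2, with 6 false calls. Far more genes (63.9%) were called in the data, which loosens the adjusted threshold. The simulated rates therefore do not give the recovery or false calls of the reported fit. Alternatives covered scaling, filter, probe set choice, replicate block, spread, threshold, size limit and leaving out each array. Figures used matplotlib 3.10.9.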

Additional observations from a re-analysis of the deposited data

How the results depend on the processing

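Of 613 recomputed member changes, 534 kept their direction and side of the threshold, 42 lost the call, 22 gained one and 15, in 11 genes, changed sign, of which 11 were called in neither setting. The settings of filter, threshold, replicate block and spread left each change as it was, as did testing every probe set. Only the call could differ under these, so the total overstates how stable the direction was. With hybridization control centring ARID3B (-0.031), DPF2 (-0.014), SMARCB1 (-0.13) and SMARCD1 (-0.061) lost their call and turned, and BAZ1B (-0.38) and DPF3 (-0.45), called neither before nor after, turned too. ACTL6B turned with quantile normalization (0.0087) and BAZ2A with the mean of probe sets (0.14). Leaving out each array gave changes of both signs for ACTL6B (-0.26 to 0.22), ARID2 (-0.26 to 0.12), ARID5B (-0.25 to 0.0099), DPF3 (-0.44 to 0.50) and SMARCD3 (-0.18 to 0.010). Hybridization control centring gave 12 higher and 13 lower members, against 15.9% higher and 48.5% lower over all genes. The medians were then 0.33 (large), -0.094 (small), -0.37 for the partners and 0.38 for the CHD and NuRD genes. With unique probe sets 16 of 30 members were higher (33.7% of all genes). The large median was then 0.88, that of the partners -0.086 and that of the CHD and NuRD genes 0.72. The partner median was also 0.063 with quantile normalization and -0.083 with the mean of probe sets. The large median was 0.95 with the limit at 1500 residues. Among the 24 members whose probe sets share a sign, a choice made after seeing the data, 1 was lower, and the medians were 0.99 (large) and 0.56 (small). Leaving out each array gave 27 to 29 higher and 4 to 5 lower members. Over all genes 30.5% to 33.8% were then higher and 25.7% to 27.5% lower. Large medians were 0.83 to 0.91, small medians 0.32 to 0.44 and their differences 0.39 to 0.59. Partner medians were -0.0015 to 0.14 and CHD and NuRD medians 0.77 to 0.96. The replicate block gave 30 higher and 5 lower members in place of 30 and 4 and moved no median. With it 36% of all genes were higher and 29.4% lower. Across genes, the replicate differences of lysate and IP correlated at r = 0.10, and the replicate numbers are not stated to pair samples. Causes of these shifts were not tested, except that unique probe sets leave fewer genes. With 2 arrays a group and no detection calls, changes near the low end are the least certain.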
